A study of Homo sapiens with 2 samples.

Results

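The genes described here are 57 cyclins, cyclin-dependent kinases (CDKs), CDK inhibitors, mitotic kinases, spindle checkpoint and kinetochore proteins and subunits of the anaphase-promoting complex, chosen by name. The array annotation lists 91 probes for 56 of them, out of 20046 genes and 47323 probes on the array. CDKN2C, which encodes the CDK inhibitor p18, was not analysed here because the annotation used lists no probe for it. The cells were SNU216, a human gastric carcinoma line. One group was a line made with a non-silencing short hairpin RNA (control) and the other a line made with TEAD4 knocked down, with 1 array in each group. The number of hairpins, how they were delivered, the time of harvest and whether a line came from 1 clone are not given in these sources. TEAD4 is a DNA-binding partner of the Hippo pathway cofactors YAP and TAZ, and the comparison asks which transcripts differ when it is reduced.

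Cells pass from G1 into S phase when D-type cyclins with CDK4 or CDK6, and then cyclin E with CDK2, phosphorylate the RB family and release E2F transcription factors. CDK inhibitors of the INK4 family bind CDK4 and CDK6, and those of the CIP/KIP family bind cyclin-CDK complexes more widely. Cyclin B with CDK1 then drives mitosis, the spindle checkpoint holds anaphase until chromosomes are attached, and the anaphase-promoting complex (APC/C), a ubiquitin ligase activated by CDC20 or FZR1, destroys securin and the mitotic cyclins. Gastric tumours often carry changes in this machinery, among them gains of cyclin genes and silencing of the INK4 locus.

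Values are normalized log2 signals, and a log2 difference is always knockdown minus control. Detection of a probe means a deposited detection p-value under 0.01. Each gene is given by its brightest probe unless another is named. With 1 array per group no test between the groups was possible and no difference has a replicate check. Differences in size are therefore set against the spread between probes of one gene, whose standard deviation (SD) per probe was 0.31 over the 2497 genes for which both arrays detected 2 or more probes. Such probes share their RNA and their array, so this spread leaves out any variation between cultures or hybridizations. It was taken from the 2 brightest such probes of each gene at all signal levels, so the same value serves bright and dim genes. Differences fell with signal, with a median size of 0.38 in the dimmest and 0.17 in the brightest of 4 groups of equal size. In a bulk sample, fewer cells in a phase of the cycle and less RNA per cell in that phase cannot be told apart.

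As a check of the label, the brightest TEAD4 probe had a log2 signal of 10.11 in the control and 7.55 in the knockdown, 5.89-fold lower. On the control array 40.0% of probes were detected, and 39.4% on the knockdown array. Of 7 epithelial markers 6 were detected, among them EPCAM at 14.52 and 14.33 and KRT19 at 14.76 and 14.71, whereas neither probe of KRT18 was detected. Of the 6, 2 were higher in the knockdown, the epithelial cadherin gene CDH1 at 13.08 and 13.74 (1.58-fold) and CLDN4 at 7.47 and 8.04 (1.49-fold). The other 4 were lower, by at most 0.20. Of the markers of other cell types, 4 of 7 fibroblast, 2 of 5 measured leukocyte and 0 of 5 endothelial markers were detected. The fibroblast markers ranged from a log2 signal of 4.53 to 6.97 in the control and from 4.60 to 6.24 in the knockdown. COL3A1, PDGFRB, FAP and the leukocyte-defining PTPRC were detected on neither array, and LUM and DCN on the control array alone. The detected leukocyte markers were CD68, at 9.77 and 10.87, and ITGAM, at 7.56 and 6.93. Whether such cells had a part in the differences below was not tested.

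The cell cycle genes were close to equal on the 2 arrays. Of the 56 genes, 51 were detected on both arrays, CCND2 and ANAPC7 on the knockdown array alone, and CCNE2, CDKN1C and CDC27 on neither. At least 2-fold higher was 1 gene, ANAPC7, and none was 2-fold lower, against 4.15% of all 11720 detected genes past 2-fold in either direction (1.81% higher and 2.34% lower). Past 1.5-fold were 3 of the 53 detected genes, ANAPC7 higher and CCND1 and CDKN2D lower, against 16.4% of all detected genes (7.24% higher and 9.20% lower). The median log2 difference of the 53 was -0.04, beside -0.04 over all detected genes, and it was -0.06 over the 51 detected on both arrays. Since CCND2 and ANAPC7 entered through the array on which they were brighter, they could only lie on the higher side.

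**Figure D1:**
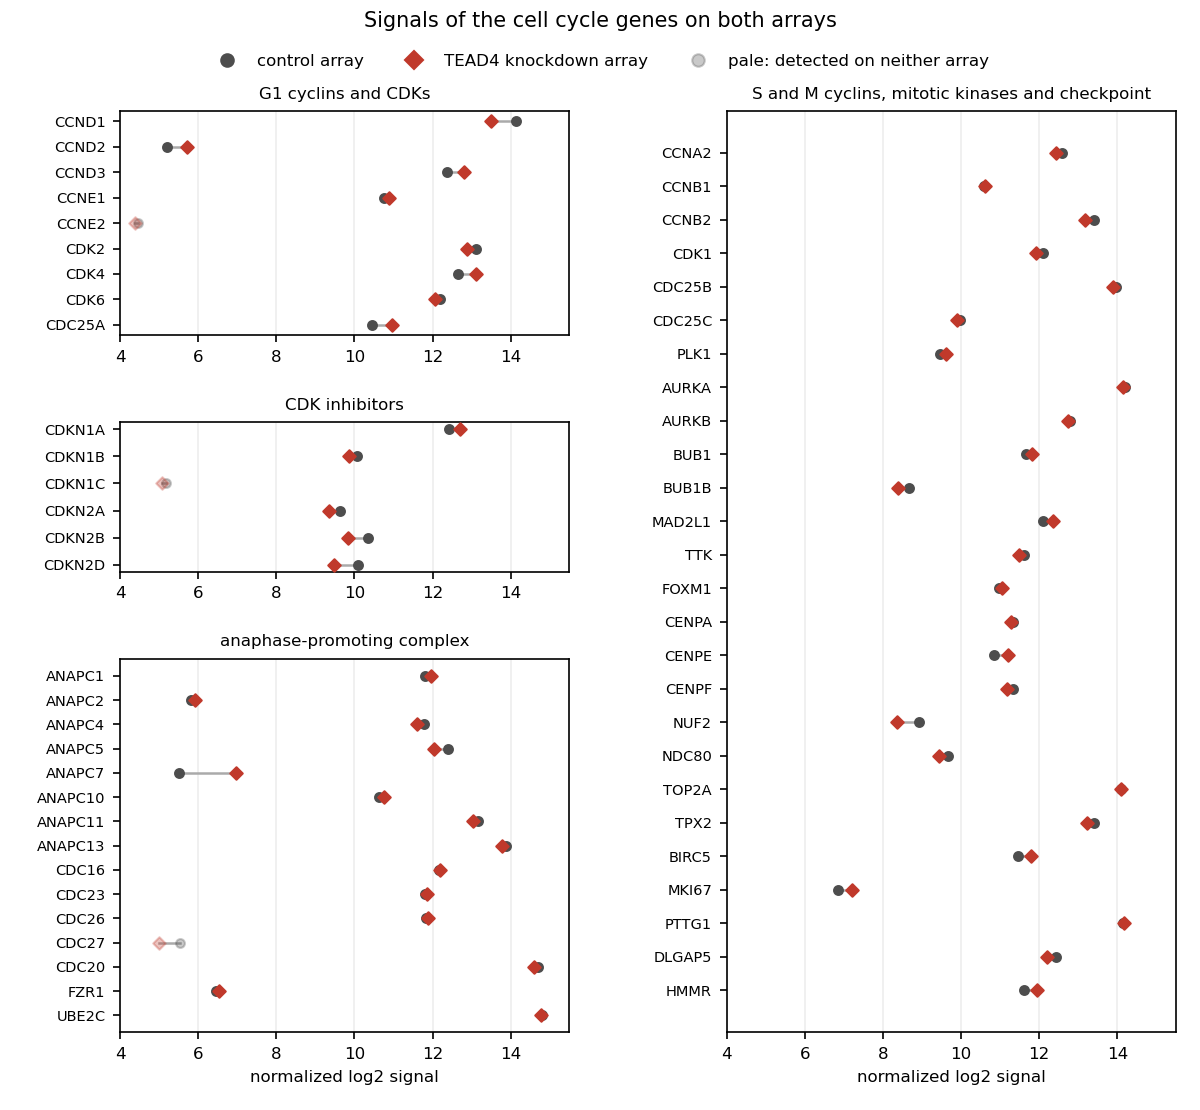
Normalized log2 signal of the brightest probe of each of the 56 measured cell cycle genes, 1 line per gene, with a circle for the control array and a diamond for the TEAD4 knockdown array. Most pairs of symbols nearly coincide; ANAPC7 (5.51 and 6.97), CCND1 (14.14 and 13.49) and CDKN2D (10.10 and 9.47) are the pairs furthest apart among genes detected on at least 1 array.

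The G1 cyclins and kinases went apart from one another. Cyclin D1, encoded by CCND1 and the partner of CDK4 and CDK6, had a log2 signal of 14.14 in the control and 13.49 in the knockdown, a difference of -0.64 or 1.56-fold lower. Its paralog CCND3 was higher, at 12.36 in the control and 12.79 in the knockdown (difference 0.43). CDK4, the kinase that both cyclins activate, was likewise higher, at 12.66 and 13.11 (0.45). These 3 differences exceeded the spread between probes of one gene, and each rests on 1 probe. Cyclin D2 was hardly measured: CCND2 was not detected in the control and lay close to the detection limit in the knockdown, at least 1.04-fold higher. The other G1 kinases differed little, with log2 differences of -0.12 for CDK6 and -0.23 for CDK2, the partner of cyclin E. CCNE1 (cyclin E1) differed by 0.13, and CCNE2 was not detected. CDC25A, the phosphatase that removes the inhibitory phosphate from CDK2, differed by 0.51 with its brightest probe, from 10.46 to 10.97, and by 0.12 with a dimmer probe detected on both arrays. The 2 D-type cyclins detected on both arrays thus lay on opposite sides, while by their brightest probes CCNE1 and CDK2 differed by less than the spread between probes. Of the 7 genes of this subgroup detected on both arrays, CCND3, CDK4 and CDC25A were higher and CCND1 was lower by more than that spread, against 37.1% of all 10717 genes detected on both arrays past it in either direction.

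Among the 5 detected CDK inhibitors, CDKN2B and CDKN2D were lower by more than the spread between probes and none was higher by their brightest probes, beside the 37.1% of all genes past it. CDKN2D, which encodes p19 of the INK4 family, had a log2 signal of 10.10 in the control and 9.47 in the knockdown, 1.55-fold lower (-0.63). A further CDKN2D probe was not detected. CDKN2B, which encodes p15 and is a known response gene of TGF-beta, went from 10.35 to 9.84 (-0.51), and another of its probes detected on both arrays differed by -0.20. Both INK4 genes were thus lower by every probe that was detected on both arrays, although only CDKN2D passed 1.5-fold. Of the CIP/KIP family, CDKN1A (p21, a p53 target) differed by 0.27 and CDKN1C (p57) was not detected. CDKN1B, which encodes p27, went from 10.07 to 9.85 by its brightest probe (-0.22) and from 8.59 to 7.72 by another probe (-0.87, or 1.83-fold lower). The direction was the same for both CDKN1B probes and the size was not.

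CDKN2A held the widest disagreement between probes of any cell cycle gene measured here. The locus makes 2 unrelated proteins from overlapping reading frames, the INK4 inhibitor p16 and ARF, which stabilizes p53, each transcript with a first exon and promoter of its own. The brightest probe, ILMN_1717714, annotated to the p16 transcript, had a log2 signal of 9.63 in the control and 9.34 in the knockdown (-0.29). Probe ILMN_1744295, annotated to the ARF transcript, went from 7.25 to 8.65, 2.64-fold higher (1.40). The deposited intensities behind it were 138.8 and 372.0. The remaining probe was not detected. The 2 detected probes therefore gave opposite directions, and under all 5 normalizations tried each kept its own direction, with the ARF probe between 1.09 in the deposited normalized table and 1.44 with median centring. Where on its transcript each probe lies is not in the annotation used here, so signal from the exons that both transcripts share cannot be told apart from signal of 1 transcript alone.

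The 250 bases before each of the 2 RefSeq start sites of CDKN2A (assembly GRCh38.p14, minus strand, written 5′ to 3′) are shown because the 2 probes that disagree are annotated to transcripts with different starts. Both windows have 66.8% G and C, and neither holds CCAAT or the letters TTTGAA or TTTAAA on either strand, so no letters are in capitals. The upstream start is the one known for ARF, at chr9:21995325-21995574, and the downstream start, at chr9:21974858-21975107, is the one known for p16.
CDKN2A ARF start: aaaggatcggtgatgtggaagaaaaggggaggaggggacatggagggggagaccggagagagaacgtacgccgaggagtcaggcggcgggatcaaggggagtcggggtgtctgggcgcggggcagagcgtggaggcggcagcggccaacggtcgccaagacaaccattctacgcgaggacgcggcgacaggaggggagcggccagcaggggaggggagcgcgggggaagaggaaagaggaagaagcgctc
CDKN2A p16 start: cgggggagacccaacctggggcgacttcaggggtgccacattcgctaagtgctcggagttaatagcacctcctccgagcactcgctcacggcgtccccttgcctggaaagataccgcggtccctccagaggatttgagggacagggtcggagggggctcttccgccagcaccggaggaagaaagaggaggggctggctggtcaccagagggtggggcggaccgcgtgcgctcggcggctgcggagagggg

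No mitotic gene passed 1.5-fold between the arrays. All 26 were detected on both arrays and 0 passed 1.5-fold in either direction, with a median log2 difference of -0.06 and a range from -0.56 to 0.37. Past 1.5-fold were 16.4% of all detected genes, but only 4.78% of those in the brightest of 4 groups of equal size by signal, which holds 17 of the 26. Within 0.25 of equality lay 19 of the 26 (73.1%), against 51.1% of all detected genes. Dim probes vary more, and most of these genes are well above background. In that brightest group, 14 of 17 mitotic genes (82.4%) lay within 0.25, against 68.8% of all 2930 genes. The median size of the log2 difference there was nearly the same, 0.16 over the mitotic genes and 0.17 over all genes.

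The regulators that start mitosis were nearly equal on the arrays. Cyclin B1 (CCNB1) had log2 signals of 10.58 in the control and 10.61 in the knockdown, and CDK1, its kinase, of 12.10 and 11.92. CCNB2 (cyclin B2) differed by -0.24 and CCNA2 (cyclin A2, which acts in S phase and early mitosis) by -0.16. Of the phosphatases that activate CDK1, CDC25B differed by -0.08 and CDC25C by -0.07, and 2 dimmer CDC25C probes by 0.22 and 0.50. FOXM1, the transcription factor that drives mitotic genes in G2, went from 10.96 to 11.04, and its other probe differed by 0.03. Neither the cyclins and kinase of mitotic entry nor their transcription factor differed by more than the spread between probes. The mitotic kinases were as close, with 0.14 for PLK1, -0.06 for AURKA, -0.04 for AURKB, -0.13 for TTK and 0.16 for the checkpoint kinase BUB1. BUB1B, the checkpoint protein BUBR1 that inhibits CDC20, differed by -0.30 and MAD2L1, which forms the same inhibitory complex, by 0.25. A dim second MAD2L1 probe, at 5.89 and 6.27, differed by 0.38, more than the spread between probes.

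Kinetochore genes gave the outermost values of the mitotic group. NUF2 and NDC80 encode partners in the complex that binds microtubules. NUF2 went from 8.93 to 8.37 (-0.56, just under 1.5-fold) and NDC80 from 9.67 to 9.45 (-0.22). A dim NUF2 probe detected on the knockdown array alone was at least 1.04-fold higher. CENPE, a kinesin of the kinetochore, was at the other end of the range, at 10.84 in the control and 11.21 in the knockdown (0.37), with 0.25 by its second probe. CENPF (-0.13) and CENPA, the histone variant of the centromere (-0.07, and 0.33 by a dimmer probe), lay between them. Kinetochore genes thus went both ways.

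Other genes of proliferating and dividing cells lay on both sides. MKI67, which encodes the Ki-67 antigen, differed by 0.35, from 6.84 to 7.20, and ranged from 0.23 in the deposited normalized table to 0.42 over the normalizations. TOP2A, the topoisomerase that untangles chromosomes, had log2 signals of 14.10 and 14.09, with a difference of -0.01 that turned to 0.02 under median centring. BIRC5 (survivin, of the chromosomal passenger complex) differed by 0.33 and HMMR, a microtubule-associated hyaluronan receptor, by 0.34, each with a second probe on the same side (0.17 and 0.49). TPX2 (-0.18) and DLGAP5 (-0.23), both spindle assembly factors, were on the other side. PTTG1, which encodes securin, differed by 0.02. In the mitotic group 4 genes were higher and 1 was lower by more than the spread between probes, 19.2% of 26, beside the 37.1% of all genes detected on both arrays. That 37.1% takes in dimmer genes, whose differences were larger. Of all detected genes 58.0% differed by 0.3 or less, and of those in the brightest signal group 76.1% did.

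**Figure D2:**
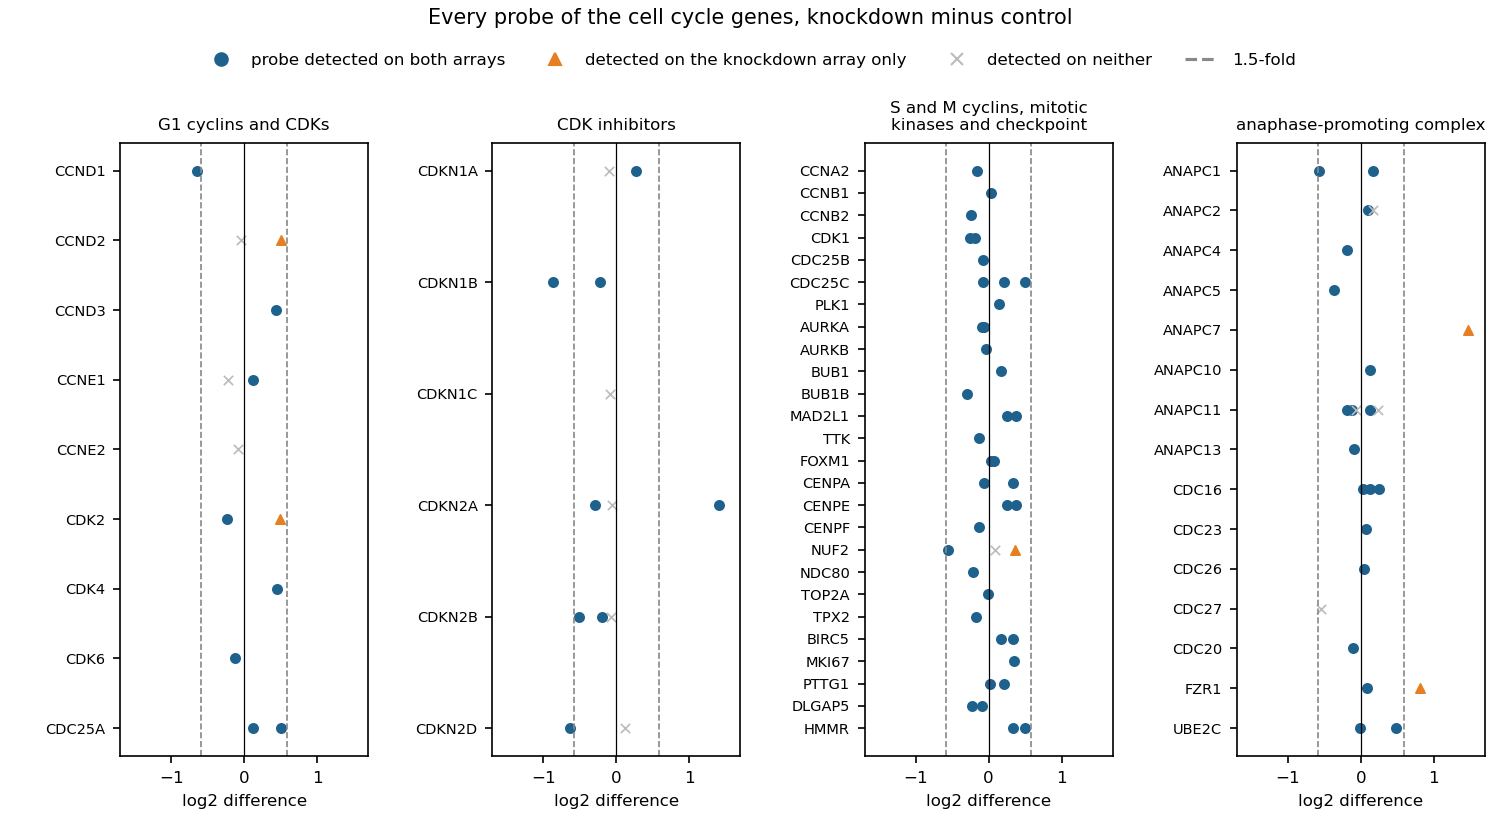
Log2 difference, knockdown minus control, of each of the 91 probes by gene, with circles for probes detected on both arrays, triangles for probes detected on the knockdown array alone and crosses for probes detected on neither. Dashed lines mark 1.5-fold; outside them lie CCND1, 1 probe each of CDKN1B, CDKN2A and FZR1, CDKN2D and ANAPC7, and no probe of the mitotic group.

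Promoters of many mitotic genes are known to carry a pair of elements that bind NF-Y (letters CCAAT) and the DREAM and MuvB complexes (the cell cycle genes homology region, CHR, here the letters TTTGAA or TTTAAA). Both were searched on both strands in the RefSeq promoter windows of 300 bases, 250 before and 50 after the start, which the table used here holds for 46 of the 57 genes. A gene with several windows counted if any held the letters. CCAAT was present in 17 of 21 mitotic genes (81.0%) and the CHR letters in 18 of 21 (85.7%), against 39.7% and 27.9% of 27305 genes. Both occurred together in 14 of these mitotic genes, against 12.7% of all genes. Among genes with a single window the shares were 12 of 16 and 14 of 16, against 36.2% and 24.9%. In the APC/C subgroup each was present in 6 of 14 genes, and in the CDK inhibitors CCAAT was present in 3 of 6 and the CHR letters in 1 of 6. The letters of an E2F site (TTTCGCGC, TTTGGCGC or TTTCCCGC) were found in 5 of the 46 genes (10.9%, against 3.30% of all genes), CDC25A, CDK1, CENPA, CDC16 and CDC23. GGAATG, the core letters of a TEAD site, were found in 8 of the 46 (17.4%), against 16.7% of all genes, namely CCND3, CDKN2B, CDKN2C, CDC25B, CENPE, CENPF, HMMR and NUF2. A match of letters is a description and not a binding site.

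The 250 bases before the start of CCNB2, CCNB1 and PLK1 (GRCh38.p14, plus strand) are shown as examples, picked after the search, of this arrangement in genes near equal on the arrays, with CCAAT and the CHR letters in capitals. They lie at chr15:59104896-59105145, chr5:69166900-69167149 and chr16:23678639-23678888. In each, the last CHR match ends 24 or 25 bases before the start and the nearest CCAAT lies upstream of it, and CCNB2 holds 4 matches of CCAAT in all. No CCAAT match overlaps a CHR match in these windows.
CCNB2: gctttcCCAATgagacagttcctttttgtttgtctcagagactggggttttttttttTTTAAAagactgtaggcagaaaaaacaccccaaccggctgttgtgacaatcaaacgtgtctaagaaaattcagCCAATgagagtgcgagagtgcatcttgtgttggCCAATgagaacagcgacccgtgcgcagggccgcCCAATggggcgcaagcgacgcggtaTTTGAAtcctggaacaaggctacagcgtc
CCNB1: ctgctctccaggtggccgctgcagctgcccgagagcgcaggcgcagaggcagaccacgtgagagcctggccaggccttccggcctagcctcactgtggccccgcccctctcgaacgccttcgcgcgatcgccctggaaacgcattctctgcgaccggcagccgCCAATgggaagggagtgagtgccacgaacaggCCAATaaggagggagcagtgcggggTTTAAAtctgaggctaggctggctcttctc
PLK1: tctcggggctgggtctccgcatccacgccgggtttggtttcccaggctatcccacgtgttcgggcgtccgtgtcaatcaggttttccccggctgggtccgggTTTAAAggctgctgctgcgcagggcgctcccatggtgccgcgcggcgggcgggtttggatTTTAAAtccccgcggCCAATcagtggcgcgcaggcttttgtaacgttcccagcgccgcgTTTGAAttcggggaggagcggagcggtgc

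**Figure D3:**
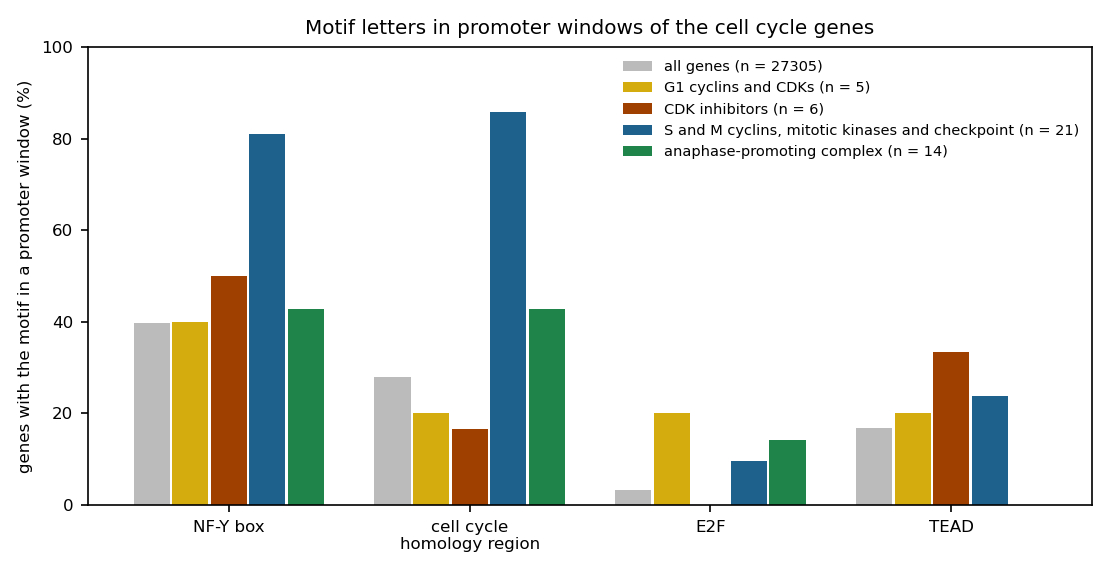
Share of genes (%) whose promoter window holds the letters of an NF-Y box, a cell cycle genes homology region, an E2F site or a TEAD site, with bars for all 27305 genes and for the 4 subgroups of cell cycle genes. The mitotic group stands at 81.0% for the NF-Y box and 85.7% for the homology region, above the 39.7% and 27.9% of all genes.

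Most APC/C subunits were nearly equal as well, and only ANAPC7, by 1 dim probe, passed 1.5-fold. Of the 15 genes of the APC/C subgroup, which include its activators and its ubiquitin-conjugating enzyme UBE2C, 14 were detected, with a median log2 difference of 0.04. Within 0.25 of equality lay 12 of these (85.7%). The same share was 51.1% over all detected genes and 68.8% over those in the brightest signal group. The scaffold subunits ANAPC1 (0.17), ANAPC4 (-0.20) and ANAPC5 (-0.37) went both ways. By brightest probes, ANAPC5 (12.41 and 12.04) was the 1 gene past the spread between probes among the 13 of this subgroup detected on both arrays. That is 7.69%, beside 37.1% of all genes detected on both arrays. ANAPC2, the cullin subunit of the catalytic core, differed by 0.09 and ANAPC11, its RING partner, by -0.13. Of the arm of tetratricopeptide repeat subunits, CDC16 (0.03) and CDC23 (0.07) were close to equal, as was CDC26, a small stabilizing subunit (0.05). CDC27, of the same arm, was not detected, and ANAPC7, also of this arm, is given below. The remaining subunits ANAPC10 (0.12), which helps to bind substrates, and ANAPC13 (-0.10) differed by less than the spread between probes.

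ANAPC7, another tetratricopeptide repeat subunit, stood apart. Its only probe had a log2 signal of 5.51 in the control, where it was not detected (detection p-value 0.023), and 6.97 in the knockdown, at least 2.49-fold higher. The deposited intensities were 29.8 and 108.0. No other subunit passed 1.5-fold by its brightest probe, and its normalized difference ranged from 0.75 in the deposited normalized table to 1.53 over the 5 normalizations, so in the deposited table it lay under 2-fold. In ANAPC1 the 2 probes disagreed: the dimmer went from 8.58 to 8.01 (-0.58, just under 1.5-fold).

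Both activators of the complex were present. CDC20, which activates it in mitosis, had log2 signals of 14.71 and 14.60 (-0.10). FZR1, which encodes CDH1, the activator of late mitosis and G1, had 6.45 and 6.54 (0.08) by its brightest probe, and a dimmer probe detected on the knockdown array alone was at least 1.38-fold higher. UBE2C was equal by its brightest probe (14.80 and 14.78, a difference of -0.01 that turned to 0.02 under median centring) and higher by 0.48 with a dimmer probe, from 9.15 to 9.63. The activators and the enzyme thus showed no difference past 1.5-fold in their brightest probes.

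Over all 4 subgroups, 19 genes had 2 or more probes that both arrays detected. The brightest and the next brightest went the same way in 13 of them and opposite ways in 6, and the gap between them was under 0.25 in 10 genes. It passed 0.5 in 3 genes, CDKN2A (1.69), ANAPC1 (0.74) and CDKN1B (0.65). The SD per probe was 0.36 over these 19 genes and 0.24 without CDKN2A. Single probes past 1.5-fold numbered 6 of the 78 detected, against 18.3% of all detected probes with 1 gene symbol, and past 2-fold 2 of 78, against 4.75%. They were those of CCND1, CDKN1B, CDKN2A, CDKN2D, ANAPC7 and FZR1, and the last 2 were detected on the knockdown array alone. By its bound the FZR1 probe is at least 1.38-fold higher, so 5 of the 6 are shown to pass 1.5-fold, with CDKN2A and ANAPC7 past 2-fold.

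**Figure D4:**
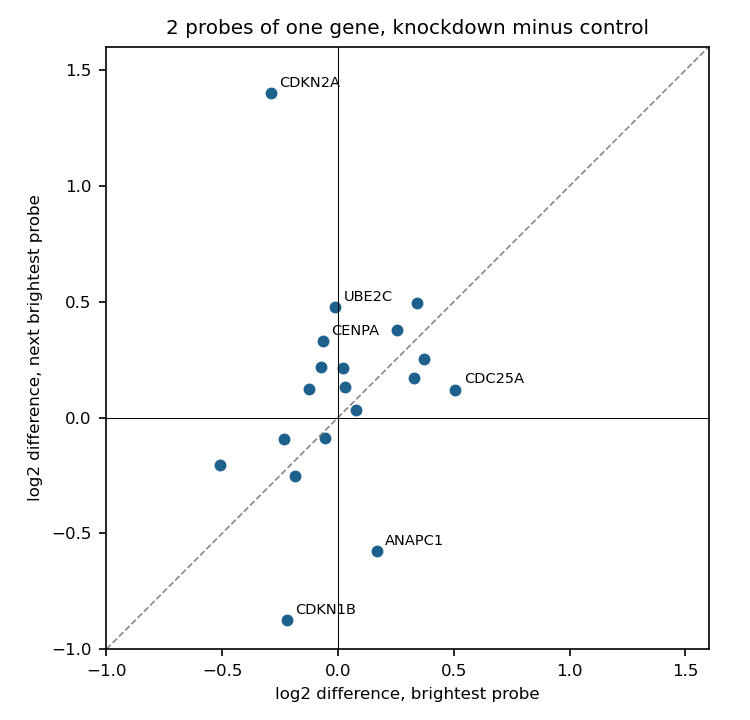
Log2 difference, knockdown minus control, of the brightest probe (horizontal) and the next brightest probe (vertical) for the 19 cell cycle genes with 2 or more probes that both arrays detected. The dashed line marks equal values. Most genes lie near it and near 0, while CDKN2A (-0.29 and 1.40), ANAPC1 (0.17 and -0.58) and CDKN1B (-0.22 and -0.87) lie away from it.

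Signal strength has to be kept in view when these counts are read. Of the 53 detected cell cycle genes, 33 lay in the brightest and 13 in the next of 4 groups of equal size by signal. In the brightest group 4.78% of all genes passed 1.5-fold, and 1 of the 33 cell cycle genes did, CCND1. In the next 11.9% of all genes did, and 1 of 13 cell cycle genes, CDKN2D. The median size of the log2 difference was 0.17 over all genes and 0.16 over the cell cycle genes of the brightest group, and 0.22 and 0.22 in the next. In these 2 groups the typical difference of the cell cycle genes was about that of other genes at like signal. The 2 dimmer groups hold only 7 of the cell cycle genes, with medians of 0.35 over 5 genes and 0.43 over 2, beside 0.38 and 0.28 over all genes. In the dimmest group 29.4% of all genes passed 1.5-fold, and 1 of 5 cell cycle genes, ANAPC7. In the other dim group 19.6% of all genes did, and 0 of 2 cell cycle genes.

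**Figure D5:**
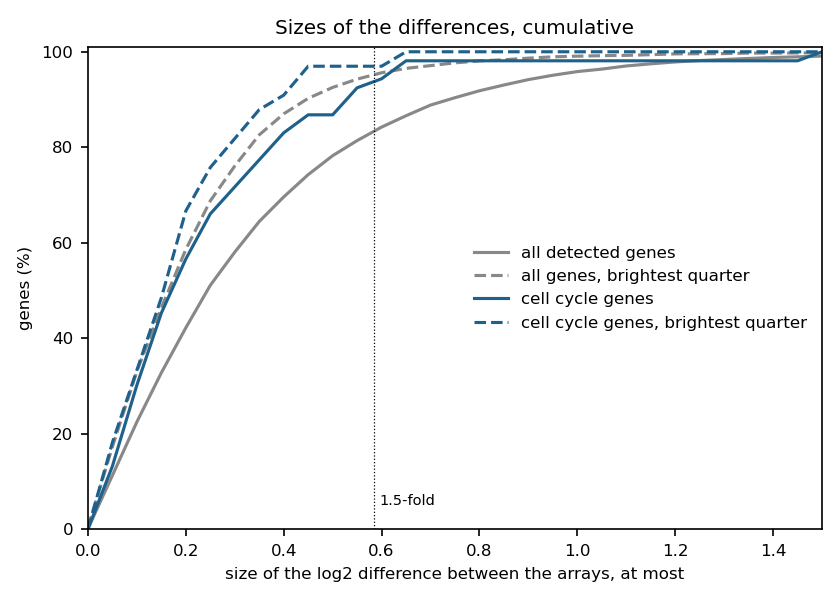
Cumulative share of genes (%) by the size of the log2 difference between the arrays, for all detected genes, for the 53 detected cell cycle genes, and for the genes of each in the brightest of 4 signal groups. At 0.25 the curves stand at 51.1% for all genes, 66.0% for the cell cycle genes, and 68.8% and 75.8% in the brightest group.

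Further genes of the same pathways were read from 7 lists of related genes. Of 113 detected genes in these lists, 4 were at least 1.5-fold higher and 7 lower by their brightest probes (6 lower when SMC1A, detected in the control alone, is taken at its bound), with a median log2 difference of -0.02, and the share of all detected genes past 1.5-fold was 16.4% as above. The regulators that read out the G1 cyclins gave 5 of these. In the RB, E2F and DREAM list, 2 of 18 genes were higher and 3 lower past 1.5-fold. E2F1, an activator of S-phase genes, went from 6.17 to 6.82 (0.65) and MYBL2, a MuvB partner that activates mitotic genes, from 5.93 to 6.77 (0.84). Both are dim, and in the deposited normalized table they differed by 0.35 and 0.44, under 1.5-fold. E2F3, another activator, went from 10.77 to 10.05 (-0.72), the repressor E2F7 from 9.20 to 8.51 (-0.69) and RBL2, the RB relative p130 of the DREAM complex, from 11.23 to 10.59 (-0.64). The activator E2F2 went from 11.52 to 11.28 (-0.24), less than the spread between probes. Activators of the E2F family thus lay on both sides, E2F3 and E2F2 lower and E2F1 higher, the last by a dim probe only.

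In the other lists few genes passed 1.5-fold by their brightest probes. CCNG2, an unconventional cyclin known to rise in resting cells, was lower by all 3 of its probes (-0.72, -0.78 and -0.54), and CDK14, a kinase that acts with cyclin Y on the Wnt coreceptor, was lower at 10.19 and 9.27 (-0.92). FBXW7, the SCF receptor that targets cyclin E, went from 9.29 to 8.46 (-0.82), while a dim probe of it, detected in the knockdown alone, lay on the other side. The checkpoint protein MAD1L1, which brings MAD2 to kinetochores, went from 6.77 to 7.70 (0.92). It was also higher by a dimmer probe detected on the knockdown array alone. PMF1, of the MIS12 kinetochore complex, went from 6.82 to 7.97 (1.14, or 2.21-fold higher), and by 0.80 in the deposited normalized table. The cohesin subunit SMC1A was detected in the control alone, at least 1.34-fold lower. By their brightest probes no other gene of these lists passed 1.5-fold, among them the 6 detected genes of the list of checkpoint kinases and related genes.

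Further probes of the same genes, dimmer than the brightest, gave other differences past that size. Of 40 further probes detected on both arrays, 11 from 10 genes passed 1.5-fold, 7 higher and 4 lower, or 27.5%, beside 19.6% of such probes over all genes; these examples were named after their values were seen. The largest differences were in MAD2L1BP, which encodes a MAD2-binding protein that helps to silence the checkpoint, and CENPM, a centromere protein. MAD2L1BP went from 6.55 to 8.10 by such a probe (1.55, with 0.37 by its brightest). CENPM was higher by all 3 of its probes, 1.96-fold and 2.82-fold by the dimmer 2 and 1.28-fold by the brightest. Lower by a dimmer probe were SKP2, the SCF receptor that targets p27 (-0.87, with -0.13 by its brightest), SPC25, of the NDC80 complex (-0.72 and -0.21), and TFDP2, an E2F partner (-0.59 and -0.46). CCNY, which encodes cyclin Y, was higher by 0.60 with a dimmer probe and by 0.31 with its brightest. In 3 genes the dimmer probe lay on the other side from the brightest: the checkpoint kinase CHEK2 (0.96 and -0.32), CCNC, the cyclin of the Mediator kinase (0.71 and -0.09), and CCNT2, a cyclin of CDK9 (0.62 and -0.15). The remaining probe is the CCNG2 probe given above.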

How the data were processed

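Total RNA was labelled with biotin through cRNA and hybridized to Illumina BeadChip arrays, per the labels' protocols. The deposited intensity values per probe are on a linear scale with a background level already subtracted, since 12861 control and 12895 knockdown signals are negative. Detection p-values accompany the signals, per the file headers. A second deposited intensity table holds quantile normalized values. The software behind both is not given in the sources used here. Signals were normalized with neqc in limma 3.58.1 (R 4.3.3), with an offset of 16, quantile normalization and log2. The offset pulls differences of dim probes towards 0. The scripts were tested on simulated data.

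Symbols came from the platform annotation, 30113 probes with 1 symbol, of which 30074 matched RefSeq by Entrez identifier. A gene took its brightest probe by mean log2 signal. A gene or probe passed 1.5-fold or 2-fold when it was also detected (p-value under 0.01) on its brighter array. For a probe detected on 1 array, the bound is its bright signal over the higher of the dim signal and the lowest detected signal of the dim array. All 57 listed genes are named, and from the other lists those past 1.5-fold, up to 4 per list and direction. Members and lists were chosen with earlier results of these data known. Promoter sequences are from RefSeq, GRCh38.p14; CCND1, CCND2, CCNE2, CDK2, CDKN1C, AURKA, BIRC5, FOXM1, TPX2, TTK and UBE2C have no entry in the table used. The genome build of the probes is not given, so no probe positions are stated. Precision is limited by the number of arrays.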

Additional observations from a re-analysis of the deposited data

How the results depend on the processing

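Alternatives changed the offset to 50, left out the further background correction, centred medians in place of quantile normalization, used the deposited normalized table, averaged the detected probes of a gene, or altered the detection rule. Of the 53 detected cell cycle genes, 51 kept the sign of their brightest probe under the 5 normalizations, and TOP2A and UBE2C, both near 0, did not. The count of genes at least 2-fold higher (1) was 0 in the deposited table and 0 with detection required on both arrays. The count at least 1.5-fold higher (1) was 2 without further background correction, where CCND2 joined ANAPC7, 2 with median centring and 0 with detection on both arrays. The count at least 1.5-fold lower (2) was 1 in the deposited table, where CDKN2D differed by -0.58. The median of the G1 cyclins and CDKs (0.28) was 0.17 in the deposited table, where CCND2 differed by 0.22 in place of 0.51. It was 0.13 with detection on both arrays, which leaves CCND2 out, and 0.13 with no detection filter. The median of all cell cycle genes (-0.04) was 0.046 with probes averaged. Averaging moved 6 genes by more than the SD per probe, CDK2 (0.13), CDKN1B (-0.55), CDKN2A (0.56), NUF2 (-0.10), ANAPC1 (-0.20) and FZR1 (0.45), since it weighs dim probes equally. An offset of 50 brought ANAPC7 to 1.01. These moves were judged against the SD per probe (for medians, over the root of the number of genes), and counts against a ratio of 1.5. No paired analysis was possible because there is only 1 array in a group, and for the same reason no replicate could be left out. Detection at 40.0% and 39.4% of probes limits CCND2, CCNE2, CDKN1C, CDC27 and ANAPC7, whose levels lie at or below the detection limit on at least 1 array.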
